A study of Mus musculus with 6 samples.

Results

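Interferon signalling from its ligand to its feedback inhibitors was examined in RNA-seq of BMMSCs, cells of mouse bone marrow that attach and multiply on plastic, through 10 genes chosen by name. They are the ligand Ifnb1, the receptor chains Ifnar1, Ifnar2, Ifngr1 and Ifngr2, the kinases Jak1, Jak2 and Tyk2, and the inhibitors Socs1 and Socs3. Each had 1 row among the 36870 distinct symbols of the deposited table. The control group held 3 libraries from C57BL/6 BMMSCs, for which the labels name a non-targeting siRNA and the RNA-sequencing methods a vehicle. The other group held 3 libraries from C57BL/6 BMMSCs treated with siRNAs against Tet1 and Tet2 together, so an effect of either siRNA cannot be told apart from that of the other. Both groups were cultured for 14 days after removal of non-adherent cells, at passage 2 by the labels and the first passage by the methods. No source says whether the libraries of a group came from separate mice or cultures, so p-values measure the spread between these libraries, which may be technical.

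Type I interferons, such as interferon beta, bind a receptor made of IFNAR1 and IFNAR2, which carry the kinases TYK2 and JAK1. Interferon gamma binds a receptor of IFNGR1 and IFNGR2, which carry JAK1 and JAK2. The activated kinases phosphorylate STAT proteins, which enter the nucleus and switch on interferon-response genes, and SOCS1 and SOCS3 are induced by cytokine signalling and inhibit the kinases or their receptors. Macrophages and stromal cells of the marrow both carry these receptors.

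Levels are given as RPKM, the reads per kilobase of transcript relative to the depth of the library. Differences were tested with limma on log2(RPKM + 1) in the 13266 genes averaging 0.1 RPKM or more, and a gene was called at a Benjamini-Hochberg adjusted p under 0.05. For genes of low RPKM such log2 fold changes are smaller than the true ones. Depth was estimated at 32400000 to 38700000 reads per library. As a check of the labels, Tet2 measured 2.57, 4.08 and 3.71 RPKM in controls and 0.358, 0.238 and 0.202 RPKM with siRNA. Tet1 was at 0.032, 0.098 and 0.05 RPKM in controls and 0.001, 0.01 and 0.001 RPKM with siRNA. The groups of Tet1 did not overlap, but its mean was under the minimum for the test. Tet3 averaged 7.03 RPKM in controls and 7.66 RPKM with siRNA, with overlap, and was not called. Markers of macrophages as well as of stromal cells were abundant. All 24 macrophage markers of the list were measured above the 0.1 RPKM minimum, and their summed level was 12615 to 15996 RPKM in the control libraries and 21217 to 24683 RPKM in the siRNA libraries. Most of that difference came from Lyz2, at 4439 and 11321 RPKM on average, and the median marker was at 1.13 times its control level. The summed level of 24 stromal markers, of which Thy1, Lepr and Lum were below the minimum, went from 5045 to 5688 RPKM in the control libraries to 2069 to 2583 RPKM in the siRNA libraries. Vim, the most abundant of them, changed little, at 1778 RPKM on average in controls and 1519 RPKM with siRNA. The median of the stromal markers tested was at 23.5% of its control level. Of the macrophage markers 10 were called higher and 4 lower, and of the 21 stromal markers tested 1 was called higher and 17 lower. Of other cell types, 12 neutrophil markers summed to 13.5 to 15.4 RPKM in controls and 43.2 to 57.4 RPKM with siRNA. Mmp8, S100a8 and Csf3r carried that sum and were called higher, Camp was called lower, and 7 of the 12, including Ly6g and Mpo, averaged under 0.1 RPKM, with S100a9 and Retnlg at 0.001 RPKM throughout. The 16 lymphocyte markers summed to 2.99 to 3.84 and 9.13 to 9.87 RPKM, nearly all from Cd4 and Cd79b, which were called higher, while 13 of the 16 averaged under 0.1 RPKM. The 7 plasmacytoid dendritic cell markers, mostly Bst2, which is also on the list of interferon-response genes, summed to 426 to 477 and 140 to 165 RPKM. In such bulk samples fewer cells of a type and less RNA per cell cannot be told apart.

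Of the 10 genes, 9 were expressed highly enough to be tested, and 4 of these were called. Socs1, Socs3 and Jak2 were lower in the siRNA libraries and Ifnar1 was higher. Of all genes tested, 44.5% were called, 29.8% as lower and 14.7% as higher, so that 4 of 9 is close to the share over all genes. A second, planned rule was a limma p under 0.05 before adjustment with a fold over 2 on the log2(RPKM + 1) scale, which shrinks the fold of low genes. By it 0 of the 9 passed in either direction, against 5.63% of all genes as lower and 0.95% as higher. With the fold as the ratio of mean RPKM, a rule added after seeing the data, 2 of the 9 genes were lower (Socs1 and Socs3). By that rule 0 were higher, against 11.8% of all genes as lower and 2.71% as higher. Without regard to the test, the groups did not overlap for 6 of the 9 genes, 3 of them lower and 3 higher in the siRNA libraries, against 35.9% of all genes lower and 19.8% higher. The median log2 fold change of the 9 genes was 0.02, and that of all genes tested was -0.09.

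**Figure D1:**
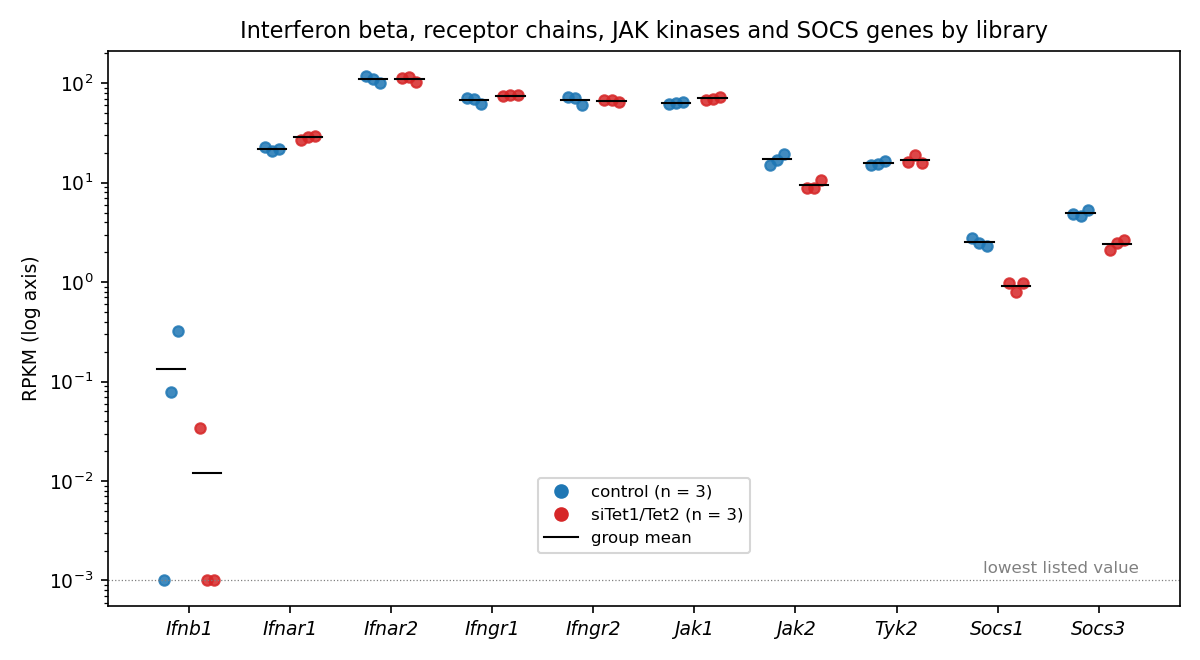
RPKM of the 10 genes in each library on a log axis, with 1 point per library, control in blue and Tet1/Tet2 siRNA in red, and a black line at each group mean. Ifnb1 lies between 0.001 and 0.32 RPKM, while Ifnar2 averages 109 and 110.4 RPKM, and the points of Jak2, Socs1 and Socs3 are lower in the siRNA libraries.

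The ligand was at the limit of detection. Ifnb1, a gene of 1 exon on chromosome 4 of GRCm38 from 88522025 to 88522774, was listed at 0.001, 0.078 and 0.32 RPKM in the control libraries. In the siRNA libraries it was listed at 0.034, 0.001 and 0.001 RPKM, where 0.001 is the lowest value of the table. At the estimated depths these values correspond to about 0, 2 and 8 reads in the control libraries and 1, 0 and 0 reads in the siRNA libraries. The groups overlapped, 8 of the 10 control reads came from control replicate 3, and a single library (1 of 6) was above the level of 3 reads. Ifnb1 was not among the genes tested, and with so few reads a difference could not be judged.

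The other ligands were also low. Ifna1, Ifna2, Ifna4, Ifna5, Ifne, Ifnl2 and Ifnl3 were listed at 0.001 RPKM in all 6 libraries. The alpha interferon genes are near-identical copies, and how reads shared between them were counted is not given in the sources used here. Ifng, the ligand of the type II receptor, was at 0.043 RPKM in siRNA replicate 1, or about 2 reads, and at 0.001 RPKM in each of the other libraries. Its usual sources are T and NK cells, whose receptor genes Cd3e, Cd3d, Cd3g, Trac, Trbc1, Ncr1 and Klrb1c were at 0.034 RPKM or less in every library. Other genes of these cells were higher, Lck at up to 0.242 RPKM, Cd2 at up to 0.158 RPKM and Cd4, which macrophages can also express, at 2.39 to 2.68 RPKM in controls and 7.56 to 8.69 RPKM with siRNA. Ifnz, a type I interferon, was at 0.073, 0.144 and 0.063 RPKM in controls (about 4, 7 and 3 reads) and at 0.001, 0.035 and 0.039 RPKM with siRNA (about 0, 2 and 2 reads). The groups of Ifnz did not overlap, but its mean was under the minimum for the test. Ifnk was at 0.038 to 0.073 RPKM in the control libraries and at 0.001 to 0.063 RPKM in the siRNA libraries, with overlap.

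The 4 receptor chains were among the more abundant transcripts, and 3 of them lie together. Ifnar2, Ifnar1 and Ifngr2 are on chromosome 16 of GRCm38, within 192841 bases, with Il10rb, the chain shared by the receptors of interleukin 10 and interferon lambda, between Ifnar2 and Ifnar1. All are on the plus strand. Ifnar2 spans 91372783 to 91405589, Il10rb 91406164 to 91425834, Ifnar1 91485238 to 91507441 and Ifngr2 91547072 to 91565623. Ifngr1 is on chromosome 10 from 19591949 to 19610229. A further annotated gene, Gm21970, reaches exons of Ifnar2 and extends into Il10rb on the same strand, so reads could be shared between these genes.

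Ifnar1 rose. It measured 22.6, 21.0 and 21.8 RPKM in controls and 27.0, 28.7 and 29.7 RPKM with siRNA. The groups did not overlap, and the mean was 1.31 times the control mean. The log2 fold change was 0.37 with an SE of 0.06 (limma, adjusted p = 0.00199), and the gene stayed called under each of the 16 alternatives that keep this rule.

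Its partner Ifnar2 was the most abundant of the 10 genes, above 95.3% of the genes tested in the control libraries. It measured 118, 110.1 and 99.8 RPKM in controls and 112, 116 and 104 RPKM with siRNA, and the groups overlapped. The log2 fold change was 0.02, with a 95% interval from -0.16 to 0.19 (adjusted p = 0.890 from limma). IFNAR2 is known as the chain that binds type I interferon most tightly.

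The chains of the interferon gamma receptor were close to each other in level. Ifngr1 measured 70.2, 69.5 and 62.1 RPKM in controls and 73.5, 75.9 and 76.0 RPKM with siRNA. All siRNA values lay above all control values, as in 55.7% of the genes tested in one direction or the other, but the gene was not called. Its log2 fold change was 0.16 (95% interval 0.01 to 0.31, adjusted p = 0.0769 from limma). After quantile normalization it was 0.24 with an adjusted p of 0.00464 from limma, and after median ratio scaling 0.26 with an adjusted p of 0.0140, so whether Ifngr1 is called depends on the scaling of the libraries. These scalings also moved the median of the genes tested, from -0.09 on the log2 scale as deposited to -0.01 by median ratio and 0.06 by quantile normalization. Ifngr2 measured 73.0, 70.9 and 60.0 RPKM in controls and 68.0, 67.0 and 64.6 RPKM with siRNA. Its groups overlapped, and its log2 fold change was -0.03 (95% interval -0.21 to 0.16, adjusted p = 0.811 from limma).

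Il10rb, which lies between the type I receptor genes, rose like Ifnar1, from 144 ± 10.3 to 185 ± 9.54 RPKM (SD, n = 3), which is 0.36 on the log2 scale with an SE of 0.07 (limma, adjusted p = 0.00505). Of the 4 neighbouring receptor genes on chromosome 16, Ifnar1 and Il10rb were thus called higher, and Ifnar2 and Ifngr2 were not called. The receptor chain of interferon lambda, Ifnlr1, was at 0.046 RPKM or less in every library.

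**Figure D2:**
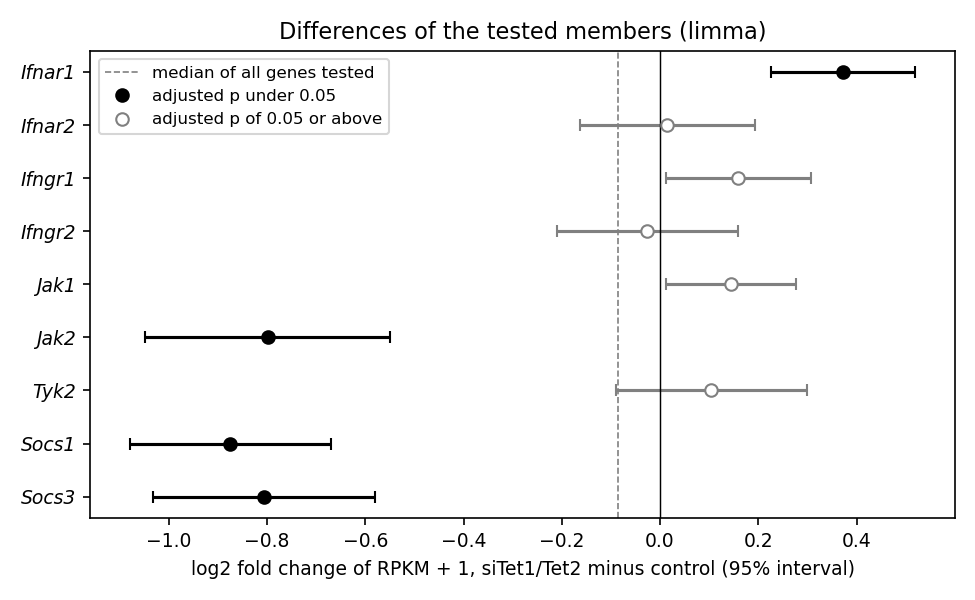
Log2 fold change of RPKM + 1 between Tet1/Tet2 siRNA and control libraries for the 9 genes tested, with 95% intervals from limma, filled points for an adjusted p under 0.05 and open points otherwise. Jak2, Socs1 and Socs3 lie between -0.87 and -0.80, Ifnar1 lies at 0.37, and the other 5 genes lie between -0.03 and 0.16.

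Among the kinases, Jak2 fell and Jak1 and Tyk2 were not called. Jak2, on chromosome 19 of GRCm38 from 29251828 to 29313080, carries signals of interferon gamma and of many growth-factor-like cytokines. It measured 15.0, 16.9 and 19.3 RPKM in controls and 8.79, 8.80 and 10.5 RPKM with siRNA. The groups did not overlap, and the siRNA mean was 54.9% of the control mean. The log2 fold change was -0.80 with an SE of 0.11 (limma, adjusted p = 0.000572).

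Jak1, on chromosome 4 from 101152367 to 101265282, is used by both interferon receptors and overlaps Raver2 on the opposite strand, which was at 0.117 RPKM or less. It measured 61.1, 63.6 and 65.3 RPKM in controls and 67.9, 69.6 and 73.0 RPKM with siRNA. Each siRNA library was above each control library, yet the log2 fold change of 0.15 (95% interval 0.01 to 0.28) missed the threshold with an adjusted p of 0.0727 from limma. Jak1 was called without control replicate 3 (adjusted p = 0.0344 from limma) and with 2 other scalings, and with the libraries rescaled to the same sum its log2 fold change was 0.08 with an adjusted p of 0.402. Tyk2, on chromosome 9 from 21104068 to 21131243, serves the type I receptor and overlaps the antisense gene 1700084C06Rik, whose reads cannot be told apart without strand. It measured 15.1, 15.4 and 16.4 RPKM in controls and 16.1, 18.9 and 15.7 RPKM with siRNA, with overlapping groups and a log2 fold change of 0.10 (95% interval -0.09 to 0.30, adjusted p = 0.346 from limma). Jak3, the remaining member of the family, averaged 9.96 ± 1.07 and 8.21 ± 0.780 RPKM (SD, n = 3) with overlapping groups, and it was not called (log2 fold change -0.25, limma adjusted p = 0.0782).

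Both feedback inhibitors fell. Socs1, on chromosome 16 from 10782240 to 10785536, encodes an inhibitor that binds JAK kinases directly. It was at 2.80, 2.44 and 2.30 RPKM in controls (about 305, 236 and 216 reads at the estimated depths). With siRNA it fell to 0.968, 0.789 and 0.988 RPKM (about 109, 89 and 102 reads). The groups did not overlap, and the siRNA mean was 36.4% of the control mean, a 2.75-fold decrease that was the largest of the 9 genes tested. The log2 fold change was -0.87 with an SE of 0.09 (limma, adjusted p = 0.000132).

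Socs3, on chromosome 11 from 117966079 to 117970047, encodes an inhibitor best known for its action on receptors that use the chain gp130. It measured 4.87, 4.62 and 5.34 RPKM in controls and 2.09, 2.47 and 2.65 RPKM with siRNA, a fall to 48.6% of the control mean without overlap. The log2 fold change was -0.81 with an SE of 0.10 (limma, adjusted p = 0.000322). With a pseudocount of 0.1 in place of 1 the log2 fold changes were -1.37 for Socs1 and -1.02 for Socs3. Stromal markers (17 of 21 called lower) and macrophage markers (10 of 24 called higher, 4 lower) moved in the same libraries. The part of these shifts in the decreases of Jak2, Socs1 and Socs3 was not tested. Nor was it tested for the increases of Ifnar1 and Il10rb or for the differences of the other genes named here.

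Of the other genes of the SOCS family, Cish fell and Socs6 rose. Cish, an inhibitor of STAT5 signalling, went from 0.780 ± 0.318 to 0.270 ± 0.0353 RPKM (SD, n = 3), which is -0.47 on the log2 scale (adjusted p = 0.0144 from limma). Socs6 went from 10.3 ± 0.609 to 13.7 ± 0.518 RPKM (SD, n = 3), which is 0.38 on the log2 scale (adjusted p = 0.00363 from limma). Socs2, Socs4, Socs5 and Socs7 were not called, with log2 fold changes from -0.21 to -0.12.

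The sequences just upstream of the RefSeq start of the 4 called genes are shown because these genes passed the test. RefSeq windows of GRCm38.p6, from 250 bases before to 50 bases after the annotated start, were found for all 10 genes. They were searched on both strands for GAAA followed after any 2 bases by GAAA, the core of the interferon-stimulated response element, and for TTCNNNGAA, the core of the gamma-activated site bound by STAT dimers. The first was present in 3.44% and the second in 8.30% of all 32851 windows. The Socs1 window held the first at 2 overlapping positions, from 83 to 68 bases before the start. TTCNNNGAA was present once in the windows of Socs3, Ifnar1 and Ifnar2, at 154 to 146 bases before the start in Socs3, across the start itself in Ifnar1 and at 214 to 206 bases before the start in Ifnar2. A match of letters is a description and not a binding site. The stretches below run from 160 bases before to 10 bases after the RefSeq start, 5′ to 3′ on the strand of the gene, with the matches in capitals. That of Socs3 lies inside the span of the gene given above, which starts further upstream by GENCODE than by RefSeq.
Socs1, chr16:10785527-10785696, minus strand: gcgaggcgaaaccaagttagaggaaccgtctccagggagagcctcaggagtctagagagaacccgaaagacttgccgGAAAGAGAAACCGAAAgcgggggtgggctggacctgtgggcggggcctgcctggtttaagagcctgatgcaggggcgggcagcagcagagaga
Socs3, chr11:117969357-117969526, minus strand: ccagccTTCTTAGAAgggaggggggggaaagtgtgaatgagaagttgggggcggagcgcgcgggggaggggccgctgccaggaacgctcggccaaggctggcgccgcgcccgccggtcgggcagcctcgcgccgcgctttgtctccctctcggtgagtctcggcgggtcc
Jak2, chr19:29251643-29251812, plus strand: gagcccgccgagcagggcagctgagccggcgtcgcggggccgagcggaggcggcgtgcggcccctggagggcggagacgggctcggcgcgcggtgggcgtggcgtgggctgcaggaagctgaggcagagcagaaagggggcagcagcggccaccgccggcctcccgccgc
Ifnar1, chr16:91485055-91485224, plus strand: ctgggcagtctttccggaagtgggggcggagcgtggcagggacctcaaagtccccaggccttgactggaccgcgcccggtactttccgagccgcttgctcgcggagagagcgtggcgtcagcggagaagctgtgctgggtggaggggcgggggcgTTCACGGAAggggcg
Within 170 bases, CG occurred 9 times in the Socs1 stretch, 20 times in that of Socs3, 24 times in that of Jak2 and 17 times in that of Ifnar1. In the whole windows of 300 bases, CG occurred 3 times for Ifnb1 and 14 to 44 times for the other 9 genes, against a median of 7 over all windows. Of all windows, 43.5% held CG 10 times or more. All windows include those of genes too low to be tested here, and the tested genes alone were not examined, so these 9 genes cannot be called unusual. CG is the dinucleotide that carries the methyl groups on which TET enzymes act, and methylation was not measured in these libraries.

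The levels of the 10 genes formed a steep order. In the control libraries, Ifnar2 was highest with 109 ± 9.16 RPKM (SD, n = 3). Ifngr2, Ifngr1 and Jak1 followed with 68.0, 67.3 and 63.3 RPKM on average, and the ranges of these 3 genes overlapped. Ifnar1 stood apart at 21.8 RPKM, Jak2 and Tyk2 overlapped at 17.1 and 15.6 RPKM, and Socs3 at 4.94 RPKM and Socs1 at 2.51 RPKM stood apart from each other. In the siRNA libraries Ifnar2 was again highest with 110.4 ± 6.12 RPKM (SD, n = 3). Ifngr1 at 75.1 RPKM then stood above Jak1 at 70.2 RPKM without overlap, Jak1 overlapped with Ifngr2 at 66.5 RPKM, and Jak2 at 9.38 RPKM fell below Tyk2 at 16.9 RPKM without overlap.

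Ratios between these genes within a library do not change when a library is multiplied by a constant. For 7 ratios, the difference between the groups was tested with an exact two-sided permutation test of the 20 possible labellings, which cannot give a p under 0.1. The ratio of Jak2 to Jak1 was 0.246, 0.266 and 0.296 in the control libraries and 0.129, 0.126 and 0.145 in the siRNA libraries. It was 2.01-fold lower after knockdown, and the groups did not overlap (exact p = 0.1, adjusted p = 0.175 over the 7 ratios). Tyk2 to Jak1 was 0.243 to 0.252 in the control libraries and 0.216 to 0.272 in the siRNA libraries, with overlap (exact p = 0.7). At control level Jak2 and Tyk2 each stood at about the same ratio to Jak1, and in the siRNA libraries Jak2, of this pair, stood lower.

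In the type I receptor, Ifnar2 exceeded Ifnar1 by 5.23, 5.24 and 4.59 times in the control libraries and by 4.13, 4.03 and 3.49 times in the siRNA libraries, without overlap (exact p = 0.1, adjusted p = 0.175). Ifngr2 to Ifngr1 went from 1.04, 1.02 and 0.967 to 0.925, 0.882 and 0.850, also without overlap (exact p = 0.1). Ifngr1 to Ifnar1 was 2.85 to 3.31 in the control libraries and 2.55 to 2.72 in the siRNA libraries, without overlap (exact p = 0.1). Each of these 3 receptor ratios was lower in the siRNA libraries, by less than the ratio of Jak2 to Jak1. Each has Ifnar1 or Ifngr1 as its denominator, and both of these genes had all siRNA values above all control values. The shared direction therefore restates those values. How often ratios of other genes do not overlap was not examined. Ifnar2 to Jak1 overlapped between the groups, at 1.53 to 1.93 and 1.42 to 1.66 (exact p = 0.4). Socs3 to Socs1 also overlapped, at 1.74 to 2.32 in the control libraries and 2.16 to 3.12 in the siRNA libraries (exact p = 0.2).

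**Figure D3:**
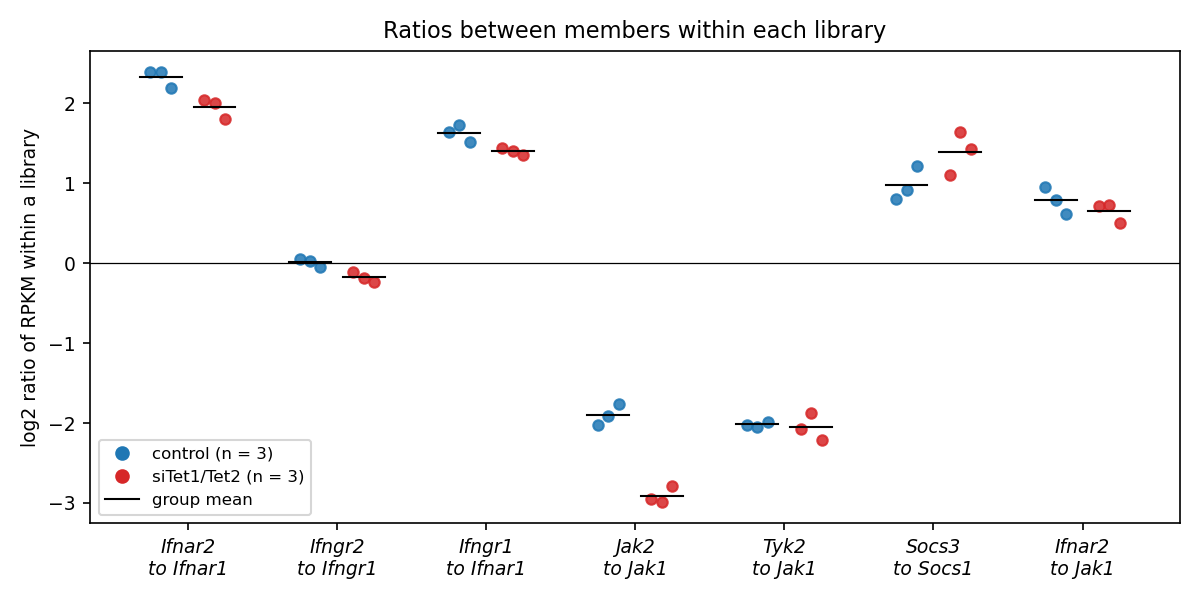
Log2 of 7 ratios of RPKM within each library, with 1 point per library, control in blue and Tet1/Tet2 siRNA in red, and a black line at each group mean. The ratio of Jak2 to Jak1 shows the widest gap, from a mean of -1.90 to -2.91 on the log2 scale, while Tyk2 to Jak1 stays near -2.02 and -2.05.

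Genes around the 10 members were then read from lists compiled by hand, with earlier results of these data known. Of 38 other genes of the pathway, 27 were tested, of which 12 were called lower and 5 higher, against 29.8% and 14.7% of all genes. Their median log2 fold change was -0.21, against -0.09 for all genes. The largest decrease was that of Usp18, which encodes a protease that also binds IFNAR2 and damps type I signalling. Usp18 fell from 49.4, 53.2 and 45.3 RPKM to 0.805, 2.29 and 1.62 RPKM, a log2 fold change of -4.33 with an SE of 0.19 (limma, adjusted p = 2.51e-06). Stat2 fell from 83.5 ± 5.39 to 18.3 ± 1.08 RPKM (SD, n = 3), and it encodes a transcription factor that the type I receptor activates. The largest increases were those of Socs6 and Il10rb, given above, and of Sh2b3, an adaptor that restrains JAK2, with a log2 fold change of 0.33.

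The interferon-response genes lay far from the receptors and kinases. Of 50 listed genes 47 were tested, of which 46 were called lower and 1 higher, against 29.8% and 14.7% of all genes. The list was not drawn up independently of these data, so its counts are a description. The medians of these 47 genes were -2.42 on the log2 scale and 14.5% of the control level. On the log2(RPKM + 1) scale, which shrinks the fold of low genes, Irf7, Ifit3 and Isg15 had the largest decreases. By the ratio of mean RPKM, other listed genes fell further. Ifit3 measured 97.6, 113 and 98.5 RPKM in controls and 1.46, 3.77 and 1.96 RPKM with siRNA. Isg15, which encodes a ubiquitin-like modifier, went from 114 to 120.1 RPKM down to 3.74 to 6.83 RPKM. The gene called higher was Ifi27, from 69.4 ± 9.82 to 98.6 ± 3.12 RPKM (SD, n = 3). None of the 9 tested receptor, kinase and inhibitor genes was below 36.4% of its control mean, the value of Socs1.

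**Figure D4:**
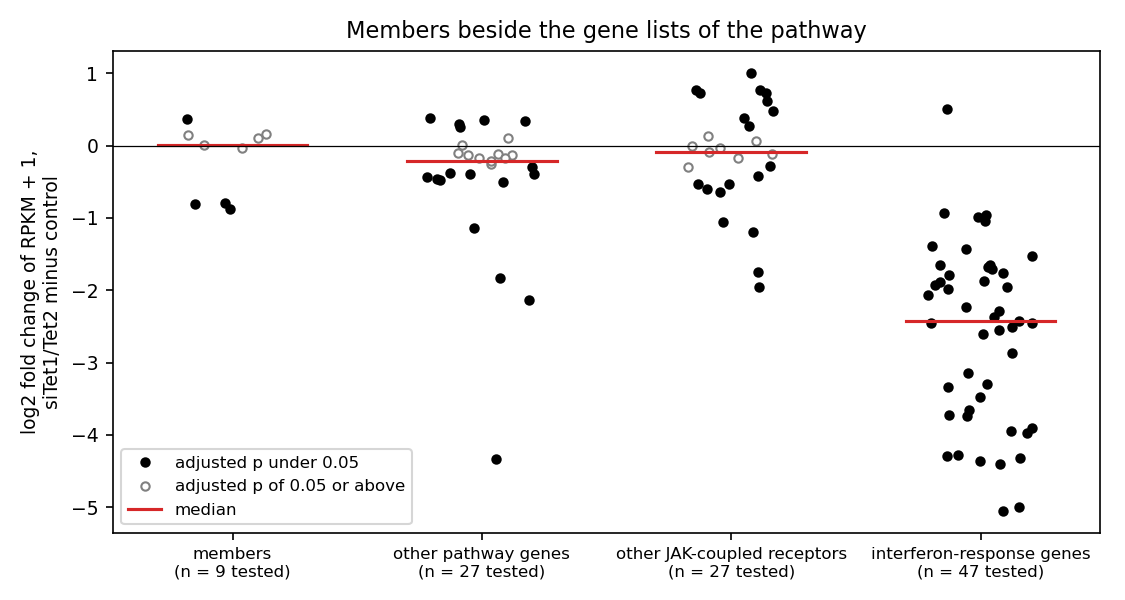
Log2 fold change of RPKM + 1 between Tet1/Tet2 siRNA and control libraries for the 9 tested members and for the tested genes of 3 lists, with filled points for an adjusted p under 0.05 and red lines at the medians. The interferon-response genes have a median of -2.42, while the medians of the members, the other pathway genes and the other JAK-coupled receptors are 0.02, -0.21 and -0.08.

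Receptor chains of other cytokines that signal through the same kinases moved in both directions. Of 35 listed chains 27 were tested, of which 10 were called lower and 9 higher, against 29.8% and 14.7% of all genes. The median log2 fold change of these chains was -0.08. Osmr, the receptor chain of oncostatin M, fell from 6.94 ± 0.765 to 1.06 ± 0.160 RPKM and Il21r from 12.7 ± 0.875 to 4.97 ± 0.436 RPKM (SD, n = 3). Csf3r, the receptor of granulocyte colony-stimulating factor, rose from 6.92 ± 0.0925 to 15.0 ± 1.15 RPKM. Il10ra, which pairs with Il10rb, rose from 12.3 ± 0.568 to 21.7 ± 0.765 RPKM, and Il7r from 35.0 ± 3.18 to 60.0 ± 2.88 RPKM (SD, n = 3).

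The genes whose log2(RPKM + 1) followed the called members most closely over the 6 libraries were named among 11066 others averaging 1 RPKM or more. For Ifnar1 they were 6430548M08Rik (Pearson's r = 0.996) and Gpd1 (0.995). Jak2 was followed by Fndc3a and Eif5, each with r = 0.999. Mcu and Epb4.1l4a followed Socs1, each with r = 0.998, and Dab2ip and Atp8b2 followed Socs3, each with r = 1.000 after rounding from 0.9997. These values describe 2 groups of 3 libraries, so genes that differ between the groups in a like way correlate. Between 4.11% of the genes for Ifnar1 and 15.8% for Socs3 had an r over 0.95.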

How the data were processed

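RNA-seq was performed by the authors on 3 control and 3 Tet1/Tet2 siRNA libraries of mouse BMMSCs. They trimmed adaptors, mapped paired-end reads to GRCm38 and estimated abundance with DNASTAR Lasergene, and deposited linear RPKM values (FPKM in the methods). Annotation release, strand and the handling of shared reads are not given in the sources used here. A column with the authors' own p-value per gene was not used.

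Of the rows of 37 repeated symbols, the most abundant represented the gene. Genes averaging 0.1 RPKM or more were compared with limma 3.58.1 in R 4.3.3 (lmFit, eBayes with trend, two-sided) on log2(RPKM + 1), with Benjamini-Hochberg adjustment over 13266 genes. The fit was tested on simulated data. The members and lists were chosen with earlier results of these data known. The genes named besides the members are every listed ligand, receptor, JAK and SOCS gene and the 2 closest in pattern to each called member. Added to these are the 3 largest called increases and decreases per list without overlap, ranked on the log2(RPKM + 1) scale. Some genes that this rule names are not reported here. Adgre1 and Rack1 were found under the older symbols Emr1 and Gnb2l1. Mx1 and Mx2, both on the list of interferon-response genes, were not analysed because no row was found under these or an older symbol.

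Depth was estimated in Python 3.11.15 as the read total that made most low values of single-transcript GENCODE M21 genes whole reads. Between 53.6% and 56.9% lay within 0.1 of a whole number, against medians of 15.4% to 17.3% over the other depths tried, so no count test was run. All 26 housekeeping genes checked were above the lowest value in every library. Reads of a gene were estimated with its longest transcript. Positions are from GENCODE M21, and promoter windows from RefSeq, both on GRCm38. Deviations from the group means correlated across genes with r = 0.149, 0.117 and 0.462 for same-numbered libraries, each over 0.1, and a fit with the number as a block was added. Control 1 with siRNA 2 (r = 0.332) and control 2 with siRNA 1 (r = 0.205) correlated more than the same-numbered pairs 1 and 2, and no source says what a number stands for.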

Additional observations from a re-analysis of the deposited data

How the results depend on the processing

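The decreases of Jak2, Socs1 and Socs3 and the increase of Ifnar1 were called by limma with the same sign under all 16 alternatives that keep the adjusted p as the rule, with log2 fold changes of -0.90 to -0.65, -1.45 to -0.64, -1.04 to -0.62 and 0.32 to 0.49. With the replicate block, which treats equal replicate numbers as pairs, 3 members were called lower and 1 higher as without it, and no call of a member changed. The number called higher became 3 with median ratio scaling (Ifnar1, Ifngr1 and Jak1), 4 with quantile normalization (also Tyk2) and 1 to 2 with one library left out, where Jak1 was called without control replicate 3. At a p under 0.05 before adjustment and a fold over 2 on the log2(RPKM + 1) scale, 0 members were called lower and 0 higher, with 747 genes lower and 126 higher. With the fold as the ratio of mean RPKM, a rule added after seeing the data, 2 members were lower and 0 higher, with 1571 genes lower and 359 higher. The log2 fold change of Ifnar2 changed sign when rescaled to the same sum (-0.048) and without control replicate 3 or siRNA replicate 2 (-0.048 to 0.072 with one library left out). That of Ifngr2 changed sign with median ratio scaling (0.078), quantile normalization (0.066) and without control replicate 1 or 2 (-0.112 to 0.027 with one library left out). Neither was called under any of the alternatives. The log2 difference in the ratio of Tyk2 to Jak1 was -0.124 to 0.042 with one library left out, positive without siRNA replicate 3. Without the filter on low values 2514 genes were called lower and 1230 higher, and 3 other pathway genes and 0 interferon-response genes were called higher. Ifnb1, tested only in that setting, had an adjusted p of 0.821 from limma. Its log2 fold change of -0.15 is shrunk by the RPKM + 1 scale, so this fit does not decide whether Ifnb1 differed. After quantile normalization 2627 genes were called lower and 3606 higher. The share of called genes that were lower was 66.9% as deposited, 74.2% rescaled to the same sum, 52.7% by median ratio and 42.1% by quantile normalization. The cause was not tested. Depth limits the ligands, whose values rest on 8 reads or fewer.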
